A study of Mus musculus with 6 samples.

Results

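The endoplasmic reticulum (ER) chaperones and XBP1 targets described here are 10 genes, chosen by symbol from the 17460 gene symbols with a value in every liver: Xbp1, Hspa5, Hsp90b1, Calr, Dnajb9, Sdf2l1, Pdia4, Pdia6, Creld2 and Herpud1. All 10 were found, and all 10 passed the filter on low values that left 17297 genes for testing. None of the 10 passed an adjusted p under 0.05 between control and Blnc1 LKO livers, a threshold that 1 gene (0.00578%) of all those tested passed in limma. For 9 of the 10 the mean was higher in Blnc1 LKO livers, where 49.6% of all genes had a higher mean. The difference was small, 1.01-fold to 1.18-fold for these 9 genes, and Herpud1 stood at 0.994 of the control level. Xbp1 showed the largest difference, a log2 fold change of 0.24. The direction of the group depended on which livers were included. Without Blnc1 LKO 3, 5 of the 10 had a higher mean, and without Blnc1 LKO 2 all 10 did.

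Secreted and membrane proteins fold in the ER with the help of chaperones and of enzymes that form disulfide bonds. When unfolded proteins build up, 3 membrane sensors, IRE1, PERK and ATF6, start the unfolded protein response. IRE1 splices Xbp1 mRNA, and the spliced form encodes a transcription factor that, together with the cleaved form of ATF6, turns on genes of folding, quality control and secretion. Hepatocytes secrete most plasma proteins, and the same response is known for its links with lipid synthesis and fatty liver disease.

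The livers came from C57BL/6 mice aged 9 months that had been fed the NASH diet, a diet that causes steatohepatitis, for 24 weeks. There were 3 control livers and 3 Blnc1 LKO livers, in which the long noncoding RNA Blnc1 was targeted in the liver. By the study's methods, LKO mice were Cas9 transgenic mice that received an adenovirus with a pair of sgRNAs against Blnc1, a virus that by the study's account poorly transduces liver cells other than hepatocytes. Control mice of the high-fat diet experiment received a GFP virus, and the virus of the NASH diet controls is not given in the sources used here. Each polyA-selected library is labelled as 1 liver of its group. No label states that the livers are of separate mice, so p-values measure the spread between these libraries. The deposited values, called normalized values below, are read numbers scaled by 1 factor for each liver. Libraries held 65384969 to 89350181 reads on the listed genes. Blnc1 is listed in RefSeq as another name of Paqr9, which stood at 16950, 18810 and 15156 in controls against 18268, 15663 and 20027 in Blnc1 LKO livers (log2 fold change 0.08, adjusted p = 0.978, limma). The study treats Paqr9 as the gene next to Blnc1, so the loss of Blnc1 cannot be read from these values. The 9 hepatocyte markers measured, of which 6 had a higher and 3 a lower mean in Blnc1 LKO livers, summed to 5811879 to 6393870 in control and 5645687 to 6784943 in Blnc1 LKO livers. Alb, which encodes albumin, had 3821072 to 4358877 and 3780898 to 4651993, so the labelled tissue was borne out by its markers.

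XBP1 and ATF6 are known to act through short promoter sequences, which are shown here because they are how these genes are known to be induced together. The ER stress element (ERSE) was searched as CCAAT and CCACG with 9 bases between them, and ERSE-II as ATTGG and CCACG with 1 base between them, on both strands. ATTGG is the reverse complement of CCAAT, so the elements share their letters. Promoter windows of 300 bases, from 250 before to 50 after the start site, were taken from RefSeq (GRCm38.p6). All 10 genes had a window. A complete ERSE stood in 5 of them, against 39 of all 32851 windows (0.119%). The 10 genes were chosen as ER chaperones and XBP1 targets, so this count and those below describe them and are not an independent test. Members are counted as genes, and the background as windows. The sites are printed 5′ to 3′ along the ERSE, with 4 bases on each side and the ERSE letters in capitals:
Hspa5: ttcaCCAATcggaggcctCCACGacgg
Hsp90b1, far site: aagcCCAATcgcaaggagCCACGcttc
Hsp90b1, near site: ctcaCCAATcgtgcctcaCCACGcact
Calr: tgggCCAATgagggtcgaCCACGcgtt
Pdia6: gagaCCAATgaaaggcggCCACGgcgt
Creld2: tggaCCAATtgaggctcgCCACGagaa
The Hspa5 sequence lies at chr2:34772021-34772047 on the + strand, and its ERSE begins 65 bases before the start site. GENCODE release M21 places this stretch in an exon of a longer Hspa5 model. The Hsp90b1 sequences lie at chr10:86705634-86705660 on the - strand and chr10:86705529-86705555 on the + strand, with the ERSE beginning 212 and 107 bases before the start. The Calr sequence lies at chr8:84847071-84847097 on the + strand, opposite to the gene, with the ERSE from 162 to 144 bases before the start. The Pdia6 sequence lies at chr12:17266487-17266513 on the + strand, with the ERSE from 98 to 80 bases before the start. The Creld2 sequence lies at chr15:88819516-88819542 on the - strand, opposite to the gene, with the ERSE from 126 to 108 bases before the start. These stretches, that of Hspa5 aside, lie outside annotated genes.

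Hsp90b1 was the member with 2 complete elements, which face each other. The stretch that holds both is printed on the strand of the gene, chr10:86705529-86705660 (- strand), with 86 bases between the elements and the ERSE letters, or their reverse complement, in capitals:
Hsp90b1: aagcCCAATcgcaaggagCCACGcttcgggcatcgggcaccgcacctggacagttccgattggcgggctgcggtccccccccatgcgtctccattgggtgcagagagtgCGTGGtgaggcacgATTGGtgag

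Herpud1 held the group's complete ERSE-II, which 12 of the 32851 windows (0.0365%) contain. It lies at chr8:94386373-94386391 on the + strand, in an intron of Gm15890 in GENCODE, with the element from 52 to 42 bases before the start of Herpud1:
Herpud1: gctgATTGGgCCACGttgg
The unfolded protein response element was searched as TGAC joined to GTGG, of which the last letters overlap CCACG on the other strand. It stood in 0.676% of all windows and in the window of none of the 10 genes. In the genes with no complete ERSE or ERSE-II, the closest stretch (for Xbp1 the first of 2 equally close) is printed with the ERSE letters that match in capitals:
Pdia4: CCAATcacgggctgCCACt
Sdf2l1: CCAATcgtctgcgcgCgCG
Dnajb9: gCAAcaacagttttCCACG
Xbp1: CtAAgccggatatgCCACc
They match 9, 8, 8 and 7 of the 10 letters. The Pdia4 stretch lies at chr6:47813602-47813620 and that of Sdf2l1 at chr16:17132405-17132423, both on the + strand and opposite to the gene. The Dnajb9 stretch lies at chr12:44210172-44210190 on the - strand and that of Xbp1 at chr11:5520536-5520554 on the + strand, each on the strand of the gene. GENCODE places the Dnajb9 stretch in an exon of Dnajb9 and the other 3 outside annotated genes. At least 9 of the 10 letters were found in the windows of 7 of the 10 genes and in 1.5% of all windows. A match of letters is not a measured binding site, and a window with no match says only that these letters are not in it.

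**Figure D1:**
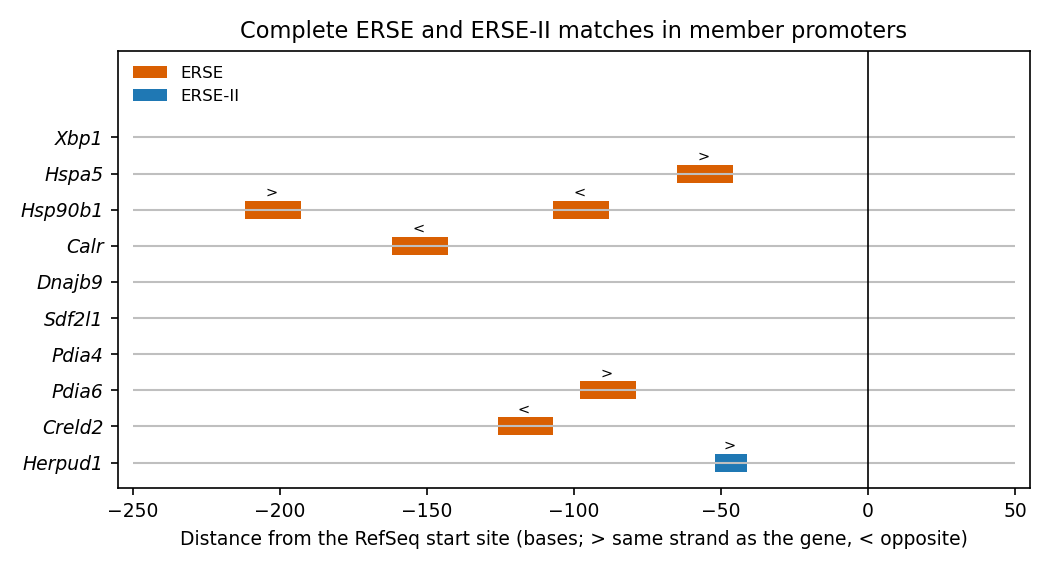
Positions of complete ERSE (orange) and ERSE-II (blue) matches in the promoter windows of the 10 genes, as distance in bases from the RefSeq start site (vertical line), with > and < for the strand of the gene and the opposite strand. Matches lie between 212 and 42 bases before the start, Hsp90b1 has 2 in opposite orientations, and Xbp1, Dnajb9, Sdf2l1 and Pdia4 have none.

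All 10 genes were strongly transcribed, so counting noise was small. The fewest reads in any liver ranged from 758 for Sdf2l1 to 42642 for Hsp90b1, for a counting error of 3.63% to 0.484% in the liver with fewest reads, which covers counting error only. Levels of different genes were compared as the mean normalized value over the 6 livers per kb of exon. Calr was first at 14908 per kb, followed by Herpud1 at 12703, Hsp90b1 at 11783 and Hspa5 at 8376. Xbp1 at 5203, Pdia4 at 4808 and Pdia6 at 4098 came next. Dnajb9 at 1675, Creld2 at 999 and Sdf2l1 at 925 per kb were the lowest. The ranges over livers of 4 neighbouring pairs overlapped: Calr and Herpud1, Herpud1 and Hsp90b1, Xbp1 and Pdia4, and Creld2 and Sdf2l1. Sdf2l1 and Creld2 each exceeded the other in 3 of 6 livers, so their order is not set by these data. The other 5 neighbouring pairs had ranges that did not overlap. Exon length was the union over all GENCODE models of a gene, so the order also depends on that length, which the spread between livers does not cover.

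Xbp1 encodes the transcription factor that IRE1 splicing activates (chromosome 11, GRCm38, 5520659 to 5525893, + strand). Controls held 14947, 17709 and 13926 (normalized values) against 17652, 18487 and 18675 in Blnc1 LKO livers. Blnc1 LKO 2 and 3 lay above every control liver, while Blnc1 LKO 1 lay just below control 2, so the groups overlapped. The mean went from 15527 ± 1957 (SD, n = 3) to 18271 ± 544 (SD, n = 3), a log2 fold change of 0.24 (95% confidence interval 0.04 to 0.44). This did not pass the adjustment over all genes (unadjusted p = 0.0224, adjusted p = 0.84, limma). The liver-to-liver coefficient of variation was 12.6% in control and 2.98% in Blnc1 LKO livers. The row of Xbp1 sums its unspliced and spliced mRNA, so splicing by IRE1 was not measured.

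Hspa5, also called BiP, is the ER member of the HSP70 family and holds the sensors inactive in unstressed cells (chromosome 2, GRCm38, 34771970 to 34777547, + strand). In controls it stood at 30725, 34635 and 36382, and in Blnc1 LKO livers at 36215, 31685 and 42886 (normalized values). Blnc1 LKO 3 stood above every other liver, and the other Blnc1 LKO livers lay within the control range. This made a log2 fold change of 0.12 (95% confidence interval -0.14 to 0.37, adjusted p = 0.973, limma), which leaves room for a level between 0.905 and 1.30 of control. Without Blnc1 LKO 3 it was 0.0019 on the log2 scale.

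Hsp90b1, or GRP94, is the HSP90 of the ER lumen (chromosome 10, GRCm38, 86690209 to 86705509, - strand). The 3 controls gave normalized values of 45505, 45430 and 47509, against 51489, 44939 and 50187 for Blnc1 LKO livers. Blnc1 LKO 1 and 3 lay above every control, and Blnc1 LKO 2 lay below every control. The log2 fold change was 0.08 (95% confidence interval -0.08 to 0.25, adjusted p = 0.973, limma). Its control livers were close to each other, with a coefficient of variation of 2.56% against 7.10% in Blnc1 LKO livers.

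Calr encodes calreticulin, a chaperone that binds sugars on newly made glycoproteins and stores calcium (chromosome 8, GRCm38, 84841850 to 84846934, - strand). Normalized values ran 43271, 41394 and 42154 over the controls, against 43699, 40624 and 46471 over the Blnc1 LKO livers. As for Hsp90b1, Blnc1 LKO 1 and 3 lay above and Blnc1 LKO 2 below every control. This made a log2 fold change of 0.04 (95% confidence interval -0.12 to 0.20, adjusted p = 0.981, limma).

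Dnajb9, or ERdj4, is a co-chaperone of HSPA5 and is widely used as a readout of spliced XBP1 (chromosome 12, GRCm38, 44205559 to 44210326, - strand). Controls held 3857, 4379 and 4469 (normalized values) against 4575, 3515 and 4818 in Blnc1 LKO livers. Again Blnc1 LKO 1 and 3 were above and Blnc1 LKO 2 below every control liver, and the spread in Blnc1 LKO livers (coefficient of variation 16.1%) exceeded that in control livers (7.80%). The log2 fold change was 0.01 (95% confidence interval -0.25 to 0.28, adjusted p = 0.999, limma).

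Sdf2l1 encodes a partner of the ER HSP40 and HSP70 chaperones (chromosome 16, GRCm38, 17130138 to 17132383, - strand). In controls it stood at 1042, 1029 and 807, and in Blnc1 LKO livers at 1048, 1111 and 1111 (normalized values). It was the 1 member of 10 whose Blnc1 LKO values all exceeded the control values, a pattern that 5.35% of all genes tested showed, and the gap between Blnc1 LKO 1 and control 1 was smaller than the counting error. With TMM scaling in place of the deposited scaling the groups overlapped. Its log2 fold change was 0.19 (95% confidence interval -0.04 to 0.43, adjusted p = 0.924, limma), and it was 0.07 without control 3, the liver with the low value.

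Pdia4 and Pdia6 are protein disulfide isomerases, which form and rearrange disulfide bonds in the ER. Pdia4 (chromosome 6, GRCm38, 47796141 to 47813430, - strand) had 11170, 11312 and 11632 in controls against 11577, 11094 and 12422 in Blnc1 LKO livers. It was the steadiest of the 10, with 1.12-fold between the highest and the lowest liver, and its log2 fold change was 0.04 (95% confidence interval -0.09 to 0.17, adjusted p = 0.98, limma). Pdia6 (chromosome 12, GRCm38, 17266545 to 17284770, + strand), an isomerase that also regulates the sensors, had 15566, 14379 and 13323 in controls against 16369, 15279 and 17158 in Blnc1 LKO livers. Blnc1 LKO 1 and 3 lay above every control liver and Blnc1 LKO 2 within the control range. The Pdia6 mean went from 14423 ± 1123 (SD, n = 3) to 16269 ± 944 (SD, n = 3), a log2 fold change of 0.18 (95% confidence interval 0.01 to 0.34, unadjusted p = 0.0415, adjusted p = 0.868, limma). Pdia6 and Pdia4 thus had differences of unlike size, but their intervals overlapped and the difference between the isomerases was not tested.

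Creld2 encodes a secreted and ER-resident protein with disulfide isomerase activity that is induced by ER stress (chromosome 15, GRCm38, 88819646 to 88826683, + strand). The 3 controls gave normalized values of 1283, 1359 and 1290, against 1177, 1259 and 1817 for Blnc1 LKO livers. Blnc1 LKO 1 and 2 lay below every control liver while Blnc1 LKO 3 reached 139% of the control mean, the widest spread of the 10 genes (coefficient of variation 24.6%, against 3.23% in control livers). The log2 fold change was 0.09 (95% confidence interval -0.25 to 0.42, adjusted p = 0.984, limma), and it was -0.11 without Blnc1 LKO 3.

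Herpud1 encodes a membrane protein of ER-associated degradation, which moves misfolded proteins out to the proteasome (chromosome 8, GRCm38, 94386438 to 94395377, + strand). Normalized values ran 27933, 27083 and 34398 over the controls, against 30388, 28220 and 29800 over the Blnc1 LKO livers. All Blnc1 LKO values lay inside the control range, whose upper end was set by control 3. This made a log2 fold change of -0.01 (95% confidence interval -0.22 to 0.20, adjusted p = 1, limma).

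**Figure D2:**
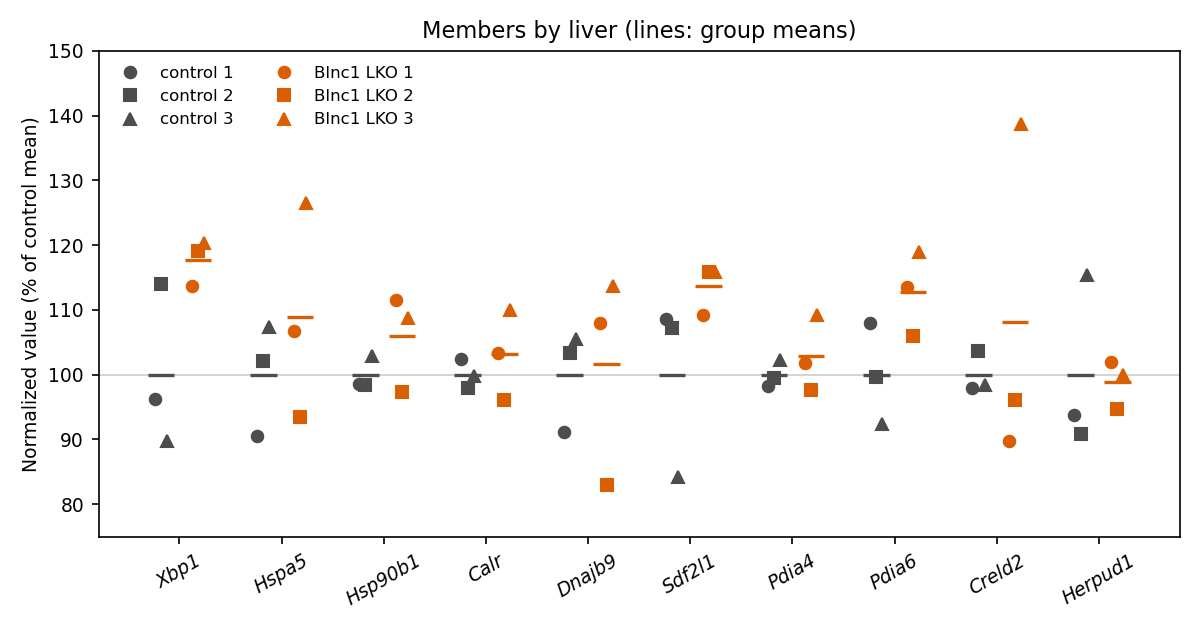
Normalized value of each of the 10 genes in each of the 6 livers, as a percent of the gene's control mean (y axis, from 75%), with control livers in grey, Blnc1 LKO livers in orange, a symbol for the liver number and lines for group means. Blnc1 LKO 3 (orange triangles) is the highest liver for 7 of the 10 genes, up to 139% of the control mean for Creld2, and the groups are separate for Sdf2l1 alone.

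Besides limma, edgeR and DESeq2 on the recovered reads also called 0 of the 10 genes at an adjusted p under 0.05, and DESeq2 called 0.533% of the genes it tested. At an unadjusted p under 0.05, Xbp1 and Pdia6 were higher in Blnc1 LKO livers, 2 of 10 genes against 2.94% of all genes tested, and none was lower. In edgeR's test Xbp1 alone was under that threshold, with an unadjusted value of 0.0321 against 0.0516 for Pdia6, and in DESeq2 both were. No single liver could be left out with both genes still under it in limma. Without control 3 or without Blnc1 LKO 3 none of the 10 was, without control 1 Pdia6 was, and without control 2 or Blnc1 LKO 1 Xbp1 was. Without Blnc1 LKO 2, Pdia6 and Hsp90b1 were under the threshold and Xbp1 was not. The median log2 fold change of the 10 genes was 0.08, against -0.00099 over all genes tested, of which 49.6% had a higher mean in Blnc1 LKO livers. Their median absolute log2 fold change, 0.083, was that of all genes, also 0.083. The 95% confidence interval reached a median of 0.21 to each side for the 10 genes and 0.24 for all genes.

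**Figure D3:**
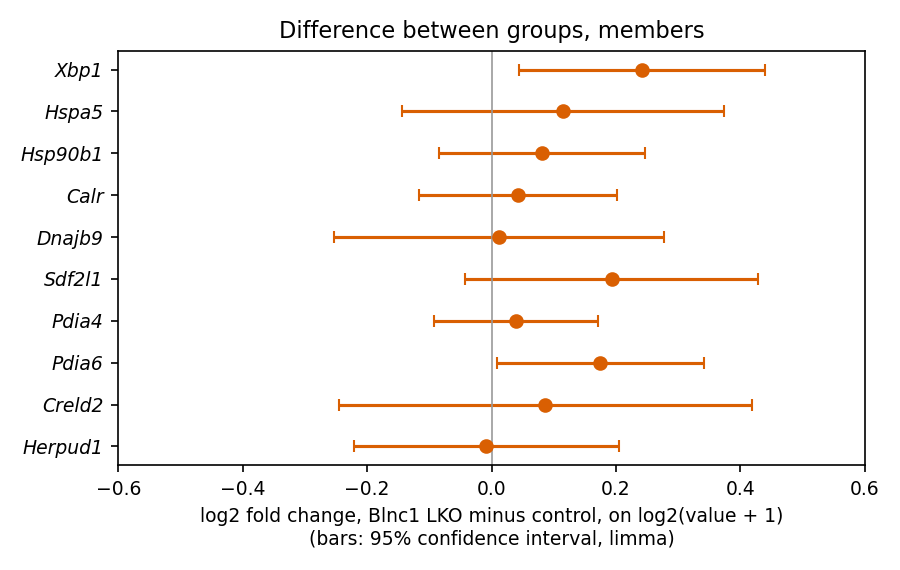
Difference between Blnc1 LKO and control livers for each of the 10 genes, as the log2 fold change on log2(value + 1) (x axis), with bars for the 95% confidence interval from limma (n = 3 livers in each group). The intervals of Xbp1 and Pdia6 lie above 0 before adjustment, and the other 8 include 0.

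One liver, Blnc1 LKO 3, stood highest for most of the 10 genes. The 10 normalized values summed to 195300, 198710 and 205890 in controls and to 214191, 196212 and 225345 in Blnc1 LKO livers. Blnc1 LKO 3 was the highest of the 6 livers for 7 of the 10 genes, where 17.4% of all genes tested peaked in that liver. The lowest of the 6 livers was Blnc1 LKO 2 for 4 of the 10 genes and control 3 for 3. Of all genes tested, 18.6% and 16.6% were lowest in these livers. Among the 3 Blnc1 LKO livers alone, Blnc1 LKO 2 was the lowest for 7 of the 10, against 34.6% of all genes. Blnc1 LKO 3 was the lowest of these 3 livers for 0 of the 10, against 28.9% of all genes. Relative to the control mean, the median of the 10 genes on the log2 scale stood at 0.11 in Blnc1 LKO 1, -0.05 in Blnc1 LKO 2 and 0.20 in Blnc1 LKO 3, while the control livers ranged from -0.03 to 0.02. By this median Blnc1 LKO 2 lay below the controls, while by the sum it lay inside their range. Without Blnc1 LKO 3 the median log2 fold change of the 10 genes was -0.0013, and Calr, Creld2, Dnajb9, Herpud1 and Pdia4 had their lower mean in the Blnc1 LKO group. Without Blnc1 LKO 2 the median was 0.16. Xbp1, Pdia6, Sdf2l1 and Hsp90b1 had a higher mean in Blnc1 LKO livers whichever liver was left out, with log2 fold changes of 0.17 to 0.34, 0.12 to 0.23, 0.07 to 0.26 and 0.04 to 0.14. Hspa5 did too, with 0.0019 to 0.22.

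Genes with and without a complete ERSE overlapped in the size of their difference. The log2 fold changes of the 5 genes with the element ran from 0.04 for Calr to 0.18 for Pdia6, and those of the 5 without it ran from -0.01 for Herpud1 to 0.24 for Xbp1. Of the 18 other tested genes with a complete ERSE, 9 had their higher mean in Blnc1 LKO and 9 in control livers, with a median log2 fold change of -0.02 and 0 adjusted calls in limma. Among these 18 were Dnajc3, Canx, Syvn1 and Derl3, of the ER lists described below. All 4 had their higher mean in Blnc1 LKO livers, with log2 fold changes of 0.05, 0.07, 0.08 and 0.56.

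The other genes of the pathway came from lists of symbols. Among 17 other ER chaperones and co-chaperones, 16 had a higher mean in Blnc1 LKO livers and 1 a lower mean, with a median log2 fold change of 0.07. Serpinh1, the collagen chaperone HSP47, was the lower one, at 4372, 4651 and 4380 in control and 2979, 3927 and 3585 in Blnc1 LKO livers (log2 fold change -0.36, adjusted p = 0.619, limma). Fkbp11, a prolyl isomerase of secretory cells, had the smallest p of the higher ones, at 968, 981 and 876 in control and 1220, 1080 and 1067 in Blnc1 LKO livers (log2 fold change 0.25, adjusted p = 0.791, limma). Both genes separated the groups, in opposite directions. Ppib, at 5830, 5882 and 5496 in control and 6691, 5951 and 5905 in Blnc1 LKO livers, was also separate, and higher. In this list 5 of 17 genes were highest in Blnc1 LKO 3, against 17.4% of all genes tested. Hyou1 and Manf, a chaperone and a secreted stress protein named here after their values were seen, were among those 5, as Creld2 was among the members highest there. Hyou1 had 4275, 4647 and 4453 in control and 4583, 4622 and 6062 in Blnc1 LKO livers, and Manf had 3645, 3862 and 3859 in control and 3800, 3840 and 5163 in Blnc1 LKO livers.

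Among 16 other protein disulfide isomerases and oxidases, 11 had a higher and 5 a lower mean, with a median log2 fold change of 0.04. Ero1lb, an oxidase that recharges the isomerases, had 2386, 2394 and 2439 in control and 3312, 2739 and 3263 in Blnc1 LKO livers. Its groups were separate (log2 fold change 0.36, standard error 0.077, adjusted p = 0.548, limma), and DESeq2 on the recovered reads called it (adjusted p = 0.0196). Of 20 genes of ER-associated degradation 16 had a higher mean (median 0.04), and of 20 genes of the translocon, signal peptidase and ER export 17 did (median 0.10). Sec61b, a subunit of the channel through which proteins enter the ER, had 2690, 2584 and 2654 in control and 3011, 2877 and 3192 in Blnc1 LKO livers (log2 fold change 0.19, adjusted p = 0.727, limma). Vimp, a membrane protein of degradation, had 3550, 3672 and 3863 in control and 4271, 3884 and 4273 in Blnc1 LKO livers (log2 fold change 0.16, adjusted p = 0.84, limma). Across these 4 lists, 60 of 73 genes had a higher mean in Blnc1 LKO livers, 0 passed the adjusted threshold in limma, and 4 were higher and 1 lower at an unadjusted p under 0.05. Of all 17297 genes tested, 49.6% had a higher mean, and 509 were higher and 474 lower at that unadjusted threshold. The groups were separate, with Blnc1 LKO higher, for 9 of the 73 genes, against 5.35% of all genes tested. With Blnc1 LKO lower they were separate for 1 of the 73, against 914 of all 17297. Leaving out Blnc1 LKO 1, 2 or 3 gave 53, 64 and 54 of these 73 genes with a higher mean. Blnc1 LKO 3 was the highest liver for 6 of the 16 isomerases and oxidases and 11 of the 20 degradation genes. It was also the highest for 12 of the 20 translocon and export genes, against 17.4% of all genes tested. Within the Blnc1 LKO group, liver 2 was lowest for 10, 11, 15 and 17 genes of these lists in turn. That held for 34.6% of all genes. High values in Blnc1 LKO 3 and low values in Blnc1 LKO 2 were thus not particular to the 10 members.

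**Figure D4:**
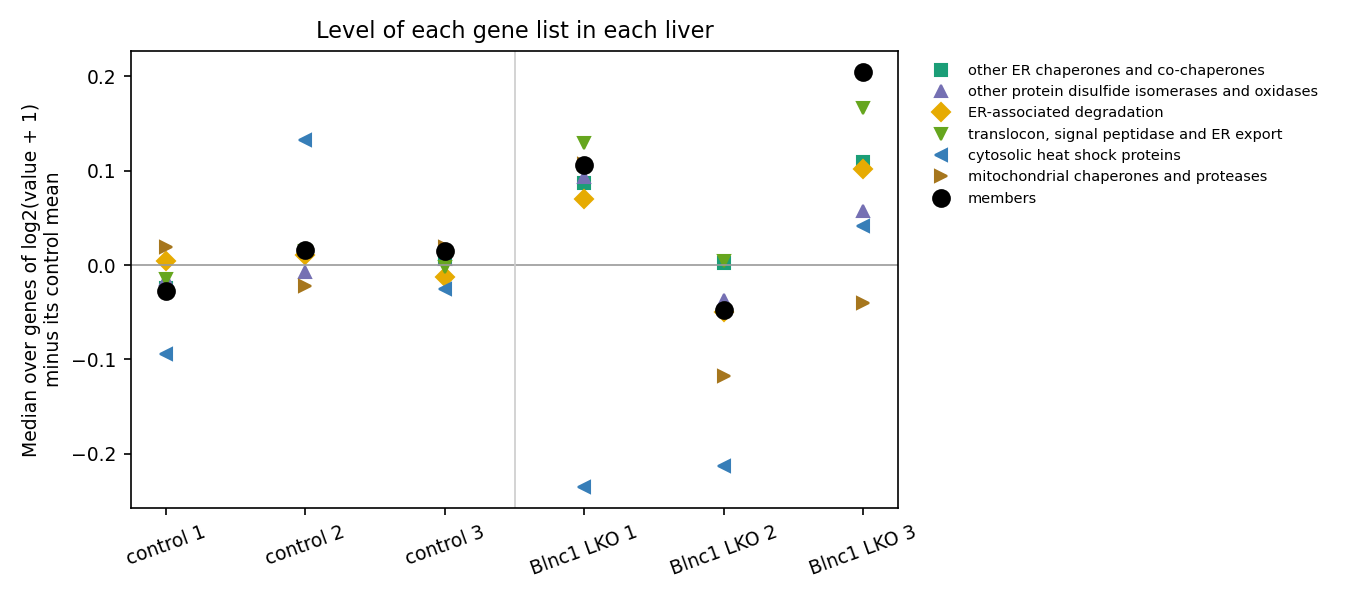
Median over the genes of each list of log2(value + 1) minus the control mean of the gene (y axis), for each of the 6 livers (x axis), with the 10 genes in black and 6 further lists in colour. The 10 genes stand at 0.20 in Blnc1 LKO 3 and -0.05 in Blnc1 LKO 2, and the cytosolic heat shock proteins at -0.24 and -0.21 in Blnc1 LKO 1 and 2.

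Upstream of these genes stand the sensors and stress transcription factors. Of 9 such genes, 3 had a higher and 6 a lower mean, with a median log2 fold change of -0.04. Creb3l1, a factor of collagen-secreting cells, had 477, 495 and 464 in control and 294, 478 and 313 in Blnc1 LKO livers (log2 fold change -0.44, adjusted p = 0.851, limma). Of 14 genes of the PERK and ATF4 arm, 6 had a higher and 8 a lower mean (median -0.02). Gdf15, a stress hormone, had 977, 923 and 1228 in control and 649, 727 and 891 in Blnc1 LKO livers, without overlap (log2 fold change -0.47, adjusted p = 0.739, limma). Trib3, a pseudokinase induced by ATF4, had 757, 614 and 617 in control and 1150, 1025 and 653 in Blnc1 LKO livers, with overlap (log2 fold change 0.47, adjusted p = 0.859, limma). Cebpb had 4518, 4912 and 5073 in control and 3737, 4186 and 4563 in Blnc1 LKO livers, also with overlap (log2 fold change -0.22, adjusted p = 0.84, limma). The 6 substrates of IRE1-dependent decay had log2 fold changes from -0.10 to 0.05.

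Chaperones of other compartments gave other counts. Of 12 cytosolic heat shock proteins 1 had a higher and 11 a lower mean in the Blnc1 LKO group, with a median log2 fold change of -0.15 and 0 at an unadjusted p under 0.05. Hspa8, the constitutive cytosolic HSP70, had 33357, 40167 and 38512 in control and 29373, 31530 and 38985 in Blnc1 LKO livers. Blnc1 LKO 3 lay inside the control range for it, and Blnc1 LKO 1 and 2 lay below that range (log2 fold change -0.17, adjusted p = 0.951, limma). Of 10 mitochondrial chaperones and proteases 3 had a higher and 7 a lower mean, with a median of -0.0078. The difference between these lists and the ER genes was not tested.

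**Figure D5:**
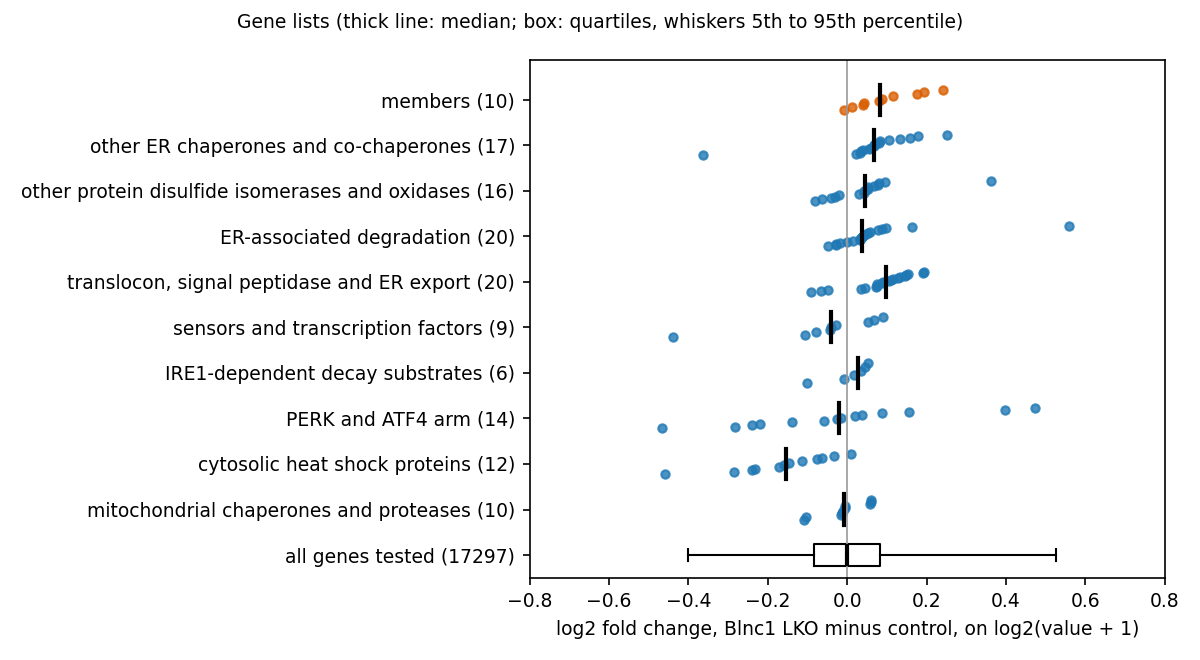
Log2 fold change of every gene (points) of the 10 members and of 9 further lists, with the number of genes in brackets and a thick line at the median, above a box of all 17297 genes tested (quartiles, with whiskers from the 5th to the 95th percentile). Medians run from 0.10 for the translocon list to -0.15 for cytosolic heat shock proteins, and no gene shown passed an adjusted p under 0.05 in limma.

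These are whole-liver values, in which fewer cells of a type and less RNA per cell cannot be told apart. Plasma cells secrete antibodies and are rich in ER chaperones. Of 10 B and plasma cell markers, 3 had a higher and 7 a lower Blnc1 LKO mean, and 5 were highest in Blnc1 LKO 3, the liver that was highest for 7 of the 10 ER genes. The whole list summed to 15112 to 17696 in control and 12991 to 13626 in Blnc1 LKO livers, mostly from Sdc1, which hepatocytes also express. The 9 markers other than Sdc1 summed to 1780, 1299 and 1989 in control and 1216, 1086 and 2451 in Blnc1 LKO livers. Jchain, the joining chain of secreted antibodies, named after its values were seen, had 897, 664 and 1161 in control and 367, 313 and 1487 in Blnc1 LKO livers. Tnfrsf17, a plasma cell receptor also named after its values were seen, had 0.93, 3.2 and 3.2 in control and 0, 0 and 7.5 in Blnc1 LKO livers. These values stand for a few reads at most in each liver, so its zeros are near the floor of counting. The part of these cells in the ER gene values was not tested. DESeq2 on the recovered reads called Sdc1 lower in Blnc1 LKO livers (log2 fold change -0.32, adjusted p = 0.00738). It also called 4 of the 10 stellate cell markers lower, namely Col1a1 (-0.61, adjusted p = 0.00466), Acta2 (-0.51, adjusted p = 0.0161), Col3a1 (-0.47, adjusted p = 0.0252) and Rgs5 (-0.29, adjusted p = 0.0499), which limma did not call. Of all 15764 genes that DESeq2 tested, it called 0.533% in either direction. Serpinh1 and Creb3l1, of the ER lists, are known from collagen-secreting cells and also had lower means, and the part of those cells in their values was not tested. Stellate cell markers had a lower mean for 8 of 10 genes, endothelial markers for 8 of 10, cholangiocyte markers for 7 of 10 and macrophage markers for 4 of 10. Their summed levels in control and Blnc1 LKO livers were 100334 to 109796 and 85015 to 100418 for stellate cells, and 64441 to 68820 and 68136 to 74276 for macrophages. For endothelial cells they were 37224 to 39462 and 35641 to 37379, and for cholangiocytes 62214 to 74660 and 49972 to 74773. The cholangiocyte sums came mostly from Spp1, at 57143, 57870 and 67487 in control and 53958, 67562 and 44457 in Blnc1 LKO livers.

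Genes outside every list were ranked by how like their pattern over the 6 livers was to the mean pattern of the 10, by the root mean square difference of centred log2(value + 1), among 12302 genes with a mean value of at least 100. The closest were Sec24c, a coat protein of vesicles that leave the ER (0.0187), Acox3, a peroxisomal oxidase (0.0197), Nvl, a nuclear ATPase (0.0216), Ing1, a chromatin protein (0.0222), and Atp6v0a2, a subunit of the vacuolar proton pump (0.0222). All 5 were highest in Blnc1 LKO 3, which follows from how they were picked, since the mean pattern of the 10 is highest there. Of the 10 genes themselves, Pdia4 (0.0393) and Calr (0.0438) lay closest to their own mean pattern, and Creld2 (0.145) and Sdf2l1 (0.144) lay farthest from it.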

How the data were processed

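PolyA-selected mRNA of 3 control and 3 Blnc1 LKO livers was sequenced. The authors used STAR for alignment (mm10), HTSeq for counting and DESeq2 for testing, in versions not given in the sources used here. The deposited signal is a gene's read count over the size factor of its liver, and 100% of values were whole reads within 0.01. Deposited columns, numbered within wild-type and knockout, were assigned to control and to Blnc1 LKO samples by that number. As the values are not raw counts, limma (version 3.58.1, R 4.3.3, lmFit and eBayes with a trend) was fitted to log2(value + 1) over the genes that reached a value of 1 in 3 or more livers, without covariates, with Benjamini-Hochberg adjustment over all genes and a threshold of 0.05. Fold changes on this scale understate those of low genes. Alternatives were a pseudocount of 0.1, no filter, at least 10 reads in every liver, library size or TMM scaling, edgeR (4.0.16), DESeq2 (1.42.0) and voom on recovered reads, the replicate number as a block, and each liver left out. The fits were tested on simulated data.

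Members and lists were chosen with earlier results of these data known. Named genes are the members, Paqr9, hepatocyte markers, the 3 genes of smallest p in a list (the text describes some of these), and the 5 genes of most similar pattern. Hyou1, Manf, Ppib, Dnajc3, Canx, Syvn1, Jchain, Tnfrsf17 and Col3a1 were named after their values were seen. Exon lengths and coordinates came from GENCODE release M21 and promoter windows from RefSeq (GRCm38.p6). To look for a library deposited under 2 names, libraries of a group were compared (chi-square per degree of freedom 20.8 to 70.0), and none was merged. This does not show that livers are of separate mice.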

Additional observations from a re-analysis of the deposited data

How the results depend on the processing

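In the 15 alternatives, 0 of the 10 genes passed an adjusted p under 0.05, with adjusted p from 0.371 to 1. Their 90 log2 fold changes in fits with all 6 livers kept their direction, and of the 60 with a liver left out 52 kept it and 8 reversed, over 5 genes. With a liver left out, Dnajb9 ranged from -0.076 to 0.15, and was also lower in Blnc1 LKO livers without control 1 (-0.053) and without Blnc1 LKO 1 (-0.038). Herpud1 ranged from -0.074 to 0.099 and was higher without control 3 and without Blnc1 LKO 2 (0.022). Calr ranged from -0.0045 to 0.092, Pdia4 from -0.0047 to 0.077 and Creld2 from -0.11 to 0.21, each reversed without Blnc1 LKO 3. In these fits the median of the 10 genes ranged from -0.0013 (without Blnc1 LKO 3) to 0.16 (without Blnc1 LKO 2), the number with a higher mean in Blnc1 LKO livers from 5 to 10, and the number at an unadjusted p under 0.05 from 0 to 2. Over all genes, limma called 1, edgeR 2, DESeq2 84 and limma with no filter on low values 2, and with a liver left out from 0 (without control 1) to 13 (without Blnc1 LKO 2), with 3 without control 2 and 2 without Blnc1 LKO 1. The cause was not tested. In edgeR 1 of the 10 genes had an unadjusted p under 0.05. In the 9 other lists of the pathway DESeq2 called 1 gene, Ero1lb, and every other alternative called 0. In the lists of cell type markers DESeq2 called 5 genes, Col1a1, Sdc1, Acta2, Col3a1 and Rgs5.

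The replicate numbers did not pair the livers: deviations of same-numbered livers correlated at -0.051, 0.018 and -0.16 over 14546 genes. A fit with that number as a block called 0 genes of all tested in limma, and 1 of the 10 genes had an unadjusted p under 0.05. With 3 livers in each group, the 95% confidence interval of a member reached a median of 0.21 on the log2 scale to each side, while counting error was at most 3.63%. Alleles, protein levels and Xbp1 splicing were not measured here.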
